A study of Mus musculus with 6 samples.

Results

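Collagens are triple-helical matrix proteins built from 3 chains, and each chain has a gene of its own. The members described here are the genes whose symbol follows the collagen chain pattern (Col, a type number, a, a chain number) and that had at least 10 raw reads in 3 or more libraries. Of 24421 gene symbols, 44 were collagen chains, and all 44 passed this rule. RNA was sequenced from the sciatic nerve of the mouse, a large mixed nerve of the leg, in 3 libraries labelled YAP/TAZ-DBL-cKO (called cKO-labelled here) and in 3 labelled YAP/TAZ-WT (WT), and the design text counts 3 mice in each group. YAP and TAZ, encoded by Yap1 and Wwtr1, are co-activators of the Hippo pathway that bind DNA through TEAD factors. The sources used here do not give the age of the mice, the alleles, the Cre driver or whether nerves were pooled.

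A peripheral nerve holds several collagen layers. Fibroblasts deposit fibrils of types I, III and V around the axons and in the outer sheath. Schwann cells and perineurial cells are wrapped in a basal lamina whose scaffold is type IV collagen, with the multiplexins XV and XVIII and the nerve collagen XXVIII at or near it. Smaller collagens bind to the surface of fibrils (the FACIT group), form networks or beaded filaments, or sit in the cell membrane. In bulk tissue, fewer cells of a type and less RNA per cell cannot be told apart.

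Gene counts per library ranged from 24651262 to 47044158, with all 3 WT libraries deeper than all 3 cKO-labelled ones. The level of Yap1 was 120.4 to 123.7 CPM (reads scaled to a library's size) in WT and 102.6 to 108.8 CPM in the cKO-labelled libraries (adjusted p = 0.145 by edgeR's quasi-likelihood test). Wwtr1 was higher in the cKO-labelled libraries, at 337.4 to 372.0 CPM against 253.8 to 284.2 CPM (adjusted p = 0.0208 by the same edgeR test). These are whole-gene counts, so reads of a deleted exon cannot be told from the rest of the gene and the groups are named by their labels. Markers of 8 skeletal muscle genes summed to 334 to 1303 CPM in WT and to 3389 to 7773 CPM in the cKO-labelled libraries, with 7 of the 8 called higher and none at 0. The 6 markers of myelinating Schwann cells summed to 77906 to 110404 CPM in WT and to 20125 to 32536 CPM in the cKO-labelled libraries, with 5 called lower and none at 0. The 6 nonmyelinating Schwann cell markers summed to 491.7 to 581.2 CPM and to 385.2 to 437.1 CPM, with 3 called lower and none at 0. This list was split: the uncalled Ncam1, L1cam and Gfap had log2 fold changes of 0.45, 0.10 and 0.02. Every library held reads of both Xist, made from an inactive X chromosome, and the Y-linked Ddx3y. The 8 nerve fibroblast markers summed to 279.5 to 470.5 CPM and to 464.3 to 545.3 CPM, ranges that overlap, with 3 called higher and none at 0. In this list the uncalled Dpt, Ly6c1, Wif1, Pdgfra and Osr2 had log2 fold changes of 1.04, 0.40, 0.14, 0.11 and −0.12. Over all genes tested, 6.17% were called lower and 4.77% higher. The part of these marker shifts in the collagen results was not tested. As an alternative, muscle level (the mean log2 CPM of the 8 muscle genes) was added to the fit. It was 4.64 to 6.70 in WT and 7.96 to 9.36 in the cKO-labelled libraries. Without overlap, that fit cannot fully tell muscle level from group, and it called 1.12% of all genes.

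Of the 44 chains, 12 (27.3%) were called changed at an adjusted p under 0.05, against 10.9% of the 14789 genes tested. Lower calls were Col4a5, Col4a6, Col11a1, Col28a1, Col23a1, Col19a1, Col8a2 and Col26a1, which is 8 chains (18.2%, against 6.17% of all genes). Of these, Col4a6 reached 10 reads in all 3 WT libraries but in only 1 cKO-labelled library. It thus met the member rule through WT, where it is higher. Higher calls were Col2a1, Col18a1, Col9a2 and Col16a1, which is 4 chains (9.09%, against 4.77% of all genes). Most of the family was not called, differences between the collagen classes were not tested, and the median log2 fold change of the 44 chains was 0.04, beside 0.02 over all genes. The 3 WT and 3 cKO-labelled values did not overlap for 17 chains (38.6%, against 31.1% of all genes), 9 with the cKO-labelled libraries below (15.8% over all genes) and 8 above (15.3%). Calls and overlap use the same values, so a lack of overlap in a called gene is not separate support for its call. At an unadjusted p under 0.05 by edgeR there were 18 of the 44 chains, against 3641 of the 14789 genes tested (24.6%). Leaving out cKO 3 left 4 chains lower and 2 higher (against 3.04% and 1.83% of all genes), and leaving out WT 3 gave 8 lower and 7 higher (7.5% and 7.19%). Scaling by total counts gave 8 lower and 8 higher (4.1% and 8.61%), and muscle level in the fit left 2 lower, Col28a1 and Col23a1, and 1 higher, Col2a1 (0.933% and 0.189%). Adjusted p lay between 0.05 and 0.1 for 5 more chains, Col17a1, Col15a1, Col20a1, Col6a6 and Col27a1, each of which DESeq2 called.

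**Figure D1:**
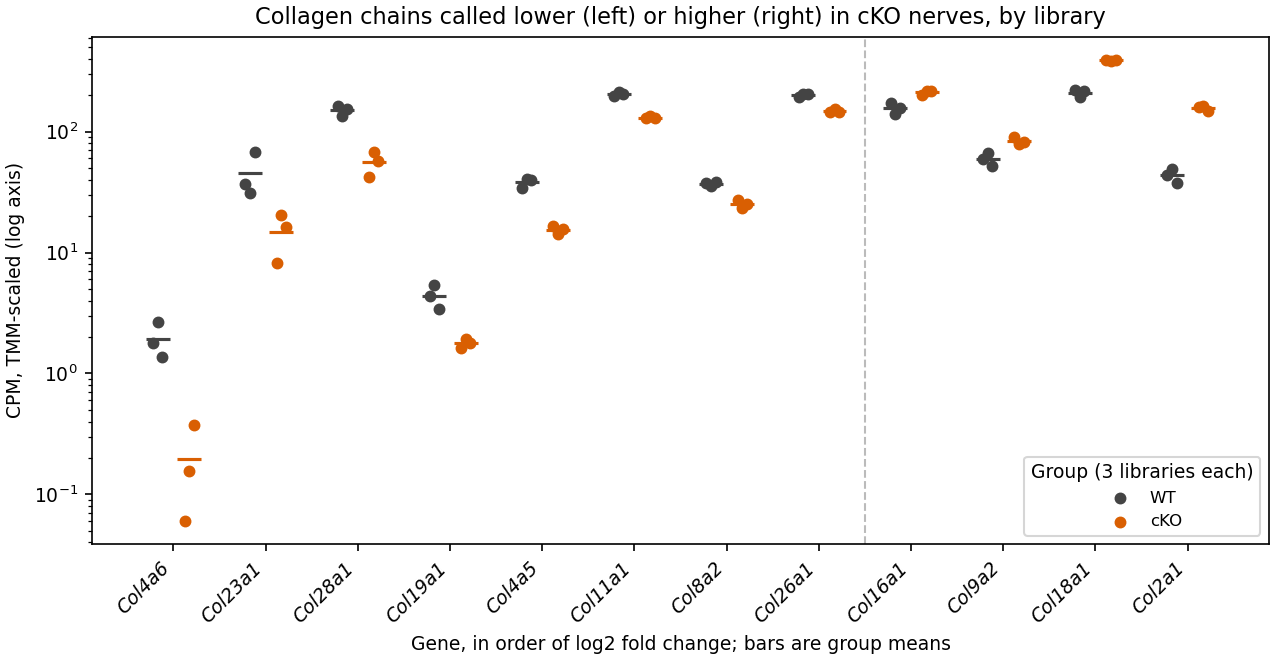
Level of each of the 12 called chains in every library, in CPM scaled by TMM factors on a log axis, with WT in grey, cKO-labelled libraries in orange and group means as bars. In each chain the 3 cKO-labelled points lie wholly to 1 side of the 3 WT points, with the smallest gaps for Col9a2 and Col16a1. The chains were picked by calls on these same values, so this separation is not separate support.

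The called chains were of low to middle abundance, and the chains that make up most of the collagen RNA were not called. By CPM per kilobase of transcript, the 10 most abundant chains in WT were Col3a1, Col1a2, Col1a1, Col4a1, Col6a1, Col5a2, Col4a2, Col6a2, Col5a1 and Col14a1. They held 90.7% to 92.2% of the summed collagen level in WT and 91.4% to 92.1% in the cKO-labelled libraries. None of the 10 was called, and the 95% intervals of their log2 fold changes lay between −0.39 and 0.44. The 12 called chains together held 3.99% to 4.84% of the level in WT and 4.37% to 4.64% in the cKO-labelled libraries. All collagens together took 2.87% to 3.42% of gene counts in WT and 3.52% to 3.65% in the cKO-labelled libraries, which did not overlap. That share uses unscaled library totals. With TMM-scaled library sizes the collagen sum did overlap, at 31494, 29599 and 37114 CPM in WT and 34555, 33826 and 34623 CPM in the cKO-labelled libraries. So did the TMM-scaled sum per kilobase, with 5552, 5228 and 6580 in WT and 6121, 5963 and 6116 in the cKO-labelled libraries.

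**Figure D2:**
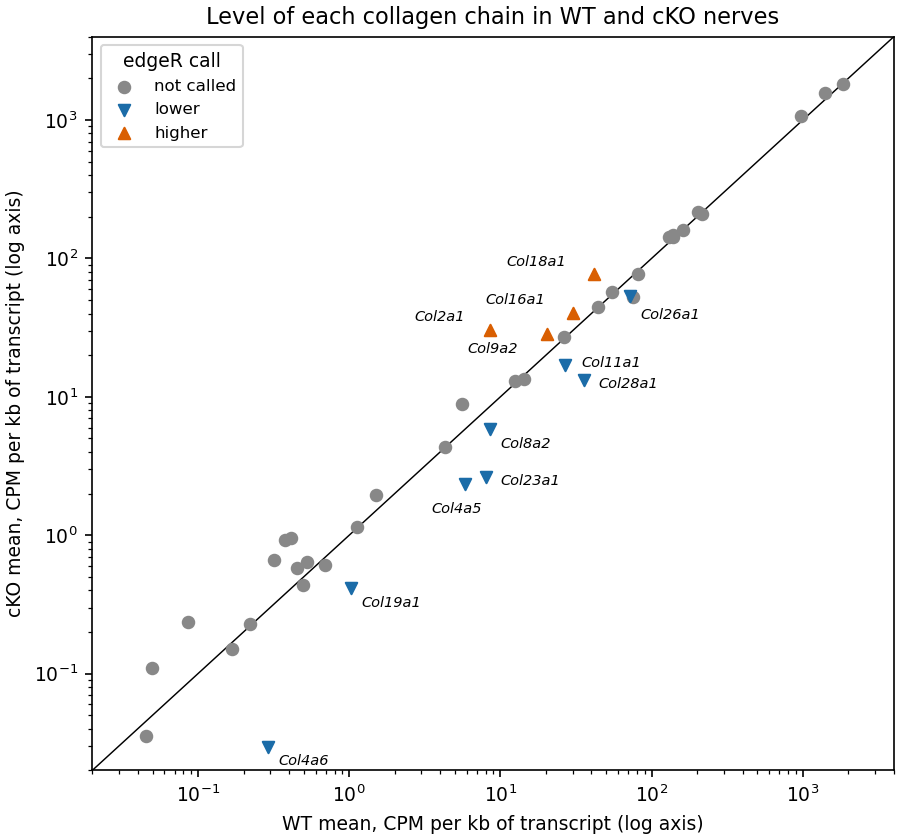
Mean level of every chain in cKO-labelled libraries against WT, in CPM per kilobase of transcript on 2 log axes, with the line of equal level and 3 libraries per group. The most abundant chains lie along the line and are not called, and the labelled called chains have WT levels from 0.290 to 72.5 CPM per kilobase.

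Of the 6 basement membrane collagens, Col4a5 and Col4a6 fell and the other 4 were not called, beside 6.17% lower and 4.77% higher over all genes. Type IV chains form the sheet of the basal lamina: the alpha 1 and alpha 2 chains are laid down in nearly every basement membrane, and alpha 5 and alpha 6 chains assemble together into a second network. The 6 genes lie in head-to-head pairs with neighbouring starts. Col4a6 (chromosome X, 141165403 to 141474076, minus strand, GRCm38) and Col4a5 (141475385 to 141689234, plus strand) start 1308 bases apart, and both fell. The sequence before each start is shown because these 2 neighbours changed in the same direction. It comes from RefSeq promoter windows on GRCm38.p6, and capitals mark the TEAD core, here CATTCC.
Col4a6 chrX:141474076-141474326, minus strand, ending with the first transcribed base: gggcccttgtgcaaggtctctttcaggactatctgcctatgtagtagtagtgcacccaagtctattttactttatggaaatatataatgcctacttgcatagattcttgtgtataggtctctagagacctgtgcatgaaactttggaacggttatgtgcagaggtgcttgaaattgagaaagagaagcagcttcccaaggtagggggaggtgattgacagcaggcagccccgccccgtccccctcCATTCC
Col4a5 chrX:141475169-141475384, plus strand, ending just before the first transcribed base: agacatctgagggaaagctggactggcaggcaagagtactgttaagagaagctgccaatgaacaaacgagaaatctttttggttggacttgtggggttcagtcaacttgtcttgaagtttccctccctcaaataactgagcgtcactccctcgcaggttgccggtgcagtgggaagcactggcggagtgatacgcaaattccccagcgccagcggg

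The Col4a6 sequence held the core at its start site, and the Col4a5 sequence held none. Among all RefSeq windows of 250 bases before to 50 after a start, CATTCC or its reverse complement GGAATG was found in 4817 of 32851 (14.66%). It was found in 5 of 38 collagen windows (13.16%), which belong to 35 chains. The other collagen sites, given to show which chains carried the letters, are written on the strand of the gene.
Col18a1 chr10:77113794-77113819, minus strand: aggctgggttCATTCCcttctgccag
Col18a1 chr10:77113744-77113769, minus strand: ctgggaaccaGGAATGagggagggtg
Col3a1 chr1:45311360-45311385, plus strand: tcacaaagcaCATTCCtatgtgtttc
Col20a1 chr2:180986427-180986452, plus strand: ctggtccatgGGAATGgatgcagaac
Col6a2 chr10:76623504-76623529, minus strand: tcccccagctCATTCCccagcttcat
A match describes letters and not a bound site. Of these 5 chains, Col4a6 fell, Col18a1 rose, and Col3a1, Col20a1 and Col6a2 were not called. The Col18a1 window (77113656 to 77113955) belongs to a start far inside the annotated gene, whose outermost start is at 77166548. Gene counts do not show which of the Col18a1 starts was used. The EGR site GCGTGGGCG or its reverse complement CGCCCACGC, searched because EGR2 drives myelin genes, was in 0 collagen windows and in 201 of all windows (0.61%), so it overlapped no TEAD core in the collagens. Col1a1, Col2a1, Col4a3, Col5a2, Col9a3, Col12a1, Col14a1, Col22a1 and Col26a1 had no window in the table.

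Col4a5 stood at 34.1, 40.2 and 40.1 CPM in the 3 WT libraries and at 16.5, 14.1 and 15.5 CPM in the 3 cKO-labelled ones. Every cKO-labelled library was below every WT library, and the fall was 2.48-fold (log2 fold change −1.31 ± 0.12 SE, adjusted p = 0.000451 by edgeR). Col4a6 was scarce already in WT, with 1.77, 2.65 and 1.36 CPM, and had 0.0603, 0.156 and 0.377 CPM in the cKO-labelled libraries, from 2, 4 and 12 reads. In cKO 1 this is below the 0.0905 CPM that a count of 0 would allow, so the 9.57-fold fall (log2 −3.26 ± 0.58, adjusted p = 0.00873 by edgeR) is known only roughly. With muscle level in the fit neither was called: the log2 fold change of Col4a5 was −1.09 (adjusted p = 0.0608, range over all alternatives 1.13e-19 to 0.0608) and that of Col4a6 was −2.48 (adjusted p = 0.429, range 7.14e-06 to 0.429). Both genes are X-linked, and Xist was at 133.9 to 258.0 CPM in WT and 163.8 to 248.8 CPM in the cKO-labelled libraries while Ddx3y was at 20.8 to 48.0 CPM and 8.93 to 25.7 CPM, neither of them called, and the part of the sex mix was not tested.

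The paired genes Col4a1 and Col4a2, whose transcripts overlap by 22 bases on opposite strands, were not called. Col4a1 had 1427, 1393 and 1427 CPM in WT and 1268, 1516 and 1390 CPM in the cKO-labelled libraries (95% interval of the log2 fold change −0.25 to 0.20). Col4a2 had 922, 850.2 and 900.0 CPM in WT and 840.2, 1084 and 955 CPM (interval −0.15 to 0.36). Both sets of libraries overlap, and the ratio of Col4a5 to Col4a1 per kilobase was 0.0242, 0.0292 and 0.0284 in WT against 0.0131, 0.00942 and 0.0113. The kidney-type chains Col4a3 and Col4a4, which start 71 bases apart, were scarce, and Col4a3 was near the detection limit. Col4a3 lay at 0.275 to 0.554 CPM in WT and 0.181 to 0.506 CPM in the cKO-labelled libraries, and Col4a4 at 1.59 to 2.72 CPM and 1.30 to 3.42 CPM. Neither was called, and their groups overlap. Col4a3 and Col4a6 reached 10 reads in all 3 WT libraries but not in all 3 cKO-labelled ones, and Col6a4 the reverse, while the other 41 chains did so in all 6.

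Among the 11 fibrillar collagens, Col2a1 rose and Col11a1 fell, beside 4.77% higher and 6.17% lower over all genes. The class carried 78.3% to 80.8% of the summed level in WT. Col2a1 encodes the main fibril chain of cartilage and also supplies the alpha 3 chain of type XI collagen, and Col11a1 encodes the alpha 1 chain of type XI, which starts fibril assembly. Col2a1 (chromosome 15, 97975602 to 98004695) was at 43.6, 48.7 and 37.8 CPM in WT and at 158, 161 and 149 CPM in cKO-labelled nerves. The groups lay far apart, with a 3.61-fold rise (log2 1.85 ± 0.11, adjusted p = 0.000162 by edgeR) that was called whichever library was left out and with muscle level added to the fit (log2 2.07, adjusted p = 0.00836, the highest of all alternatives, the lowest being 2.02e-52). Col11a1 (chromosome 3, 114030540 to 114220718) went the other way, from 197, 212 and 204 CPM in WT to 128, 133 and 129 CPM (1.57-fold lower, log2 −0.65 ± 0.08, adjusted p = 0.00148 by edgeR). With muscle level in the fit it was not called (log2 −0.61, adjusted p = 0.169, range over all alternatives 1.27e-13 to 0.169). The ratio of Col2a1 to Col11a1 per kilobase went from 0.332, 0.345 and 0.278 in WT to 1.85, 1.82 and 1.74.

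Cartilage markers were scarce in these libraries. The 5 markers summed to 3.89 to 5.34 CPM in WT and to 7.06 to 7.88 CPM in the cKO-labelled libraries. Of the 3 that were tested, the aggrecan gene Acan was called higher, at 1.02 to 1.60 CPM against 2.22 to 4.05 CPM, beside 4.77% of all genes. Lect1 and Hapln1 were not called. Matn1 and Matn3 were too scarce to be tested, at no more than 0.241 CPM in any library, with Matn1 at 0 in WT 3 and cKO 2 and Matn3 at 0 in WT 3. The 4 bone markers summed to 1.29 to 2.55 CPM in WT and to 3.66 to 5.13 CPM in the cKO-labelled libraries, with none called and Bglap at 0 in WT 3. The part of either list in Col2a1 was not tested.

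The chains of the bulk fibrils were not called. Col3a1, the chain of the thin type III fibrils, had 9208, 8481 and 12948 CPM in WT and 10780, 9125 and 10496 CPM in the cKO-labelled libraries (interval −0.39 to 0.37). Col1a2 had 7048, 6904 and 8547 CPM in WT and 8791, 8112 and 8402 CPM (interval −0.10 to 0.44). The groups overlap in both chains, as they do in Col1a1, the partner of Col1a2 in type I collagen (interval −0.12 to 0.38). The log2 fold changes of the type V chains were 0.13 for Col5a1, −0.00 for Col5a2 and 0.01 for Col5a3. Those of the minor fibrillar chains Col11a2 and Col24a1 were 0.01 and 0.29. Col27a1 had 56.9, 39.4 and 30.8 CPM in WT and 57.5, 69.3 and 74.8 CPM in the cKO-labelled libraries, without overlap, but missed the threshold (adjusted p = 0.0735 by edgeR), and was called without WT 1 (adjusted p = 0.0107, range over all alternatives 0.0107 to 0.796).

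Of the 2 multiplexins, proteoglycan-like collagens of the basement membrane zone, Col18a1 rose (4.77% of all genes did) and Col15a1 was not called. Col18a1, whose C-terminal fragment is endostatin, had 221, 193 and 217 CPM in WT and 392, 385 and 391 CPM in those labelled cKO. The cKO-labelled libraries were tightly grouped above all WT libraries (1.85-fold higher, log2 0.89 ± 0.09, adjusted p = 0.00061 by edgeR). Col18a1 (chromosome 10, 77052178 to 77166548) overlaps Slc19a1 on the opposite strand, and without a stated strand setting reads of the overlap cannot be assigned. With the muscle covariate its log2 fold change was 0.74 (adjusted p = 0.102, range 3.06e-19 to 0.102). Col15a1 had 392, 372 and 413 CPM in WT and 206, 322 and 286 CPM in the cKO-labelled libraries, again without overlap but with a wide cKO-labelled spread (log2 −0.53 ± 0.15, adjusted p = 0.0569 by edgeR). It was called without cKO 2 (adjusted p = 0.0365, range 0.00432 to 0.191). Per kilobase, Col15a1 exceeded Col18a1 in WT, with a Col18a1 to Col15a1 ratio of 0.575, 0.531 and 0.536, and the order turned in the cKO-labelled libraries, with 1.94, 1.22 and 1.40.

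Collagens XXVI and XXVIII, which fit none of the larger classes, both fell, beside 6.17% of all genes called lower. Col28a1, a collagen with von Willebrand factor A domains that is found mainly in peripheral nerve, had 164, 135 and 153 CPM in WT and 42.5, 67.6 and 57.4 CPM in the cKO-labelled libraries. All cKO-labelled values were well below all WT values (2.70-fold, log2 −1.43 ± 0.16, adjusted p = 0.00107 by edgeR), and the gene was called under all 17 alternatives, with the muscle covariate giving −1.96 and the highest adjusted p, 0.0158, from a lowest of 2.53e-16. Col26a1, a short collagen first described in reproductive tissue, had 194, 206 and 204 CPM in WT and 146, 153 and 146 CPM (1.36-fold lower, log2 −0.44 ± 0.08, adjusted p = 0.00868 by edgeR). Its small fall missed the threshold without cKO 3 (adjusted p = 0.0542, range over all alternatives 1.70e-06 to 0.400). Together the 2 chains were at 106.2 to 109.4 CPM per kilobase in WT and at 62.5 to 71.2 in the cKO-labelled libraries. Neither chain overlapped on its own, so their sum could not.

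**Figure D3:**
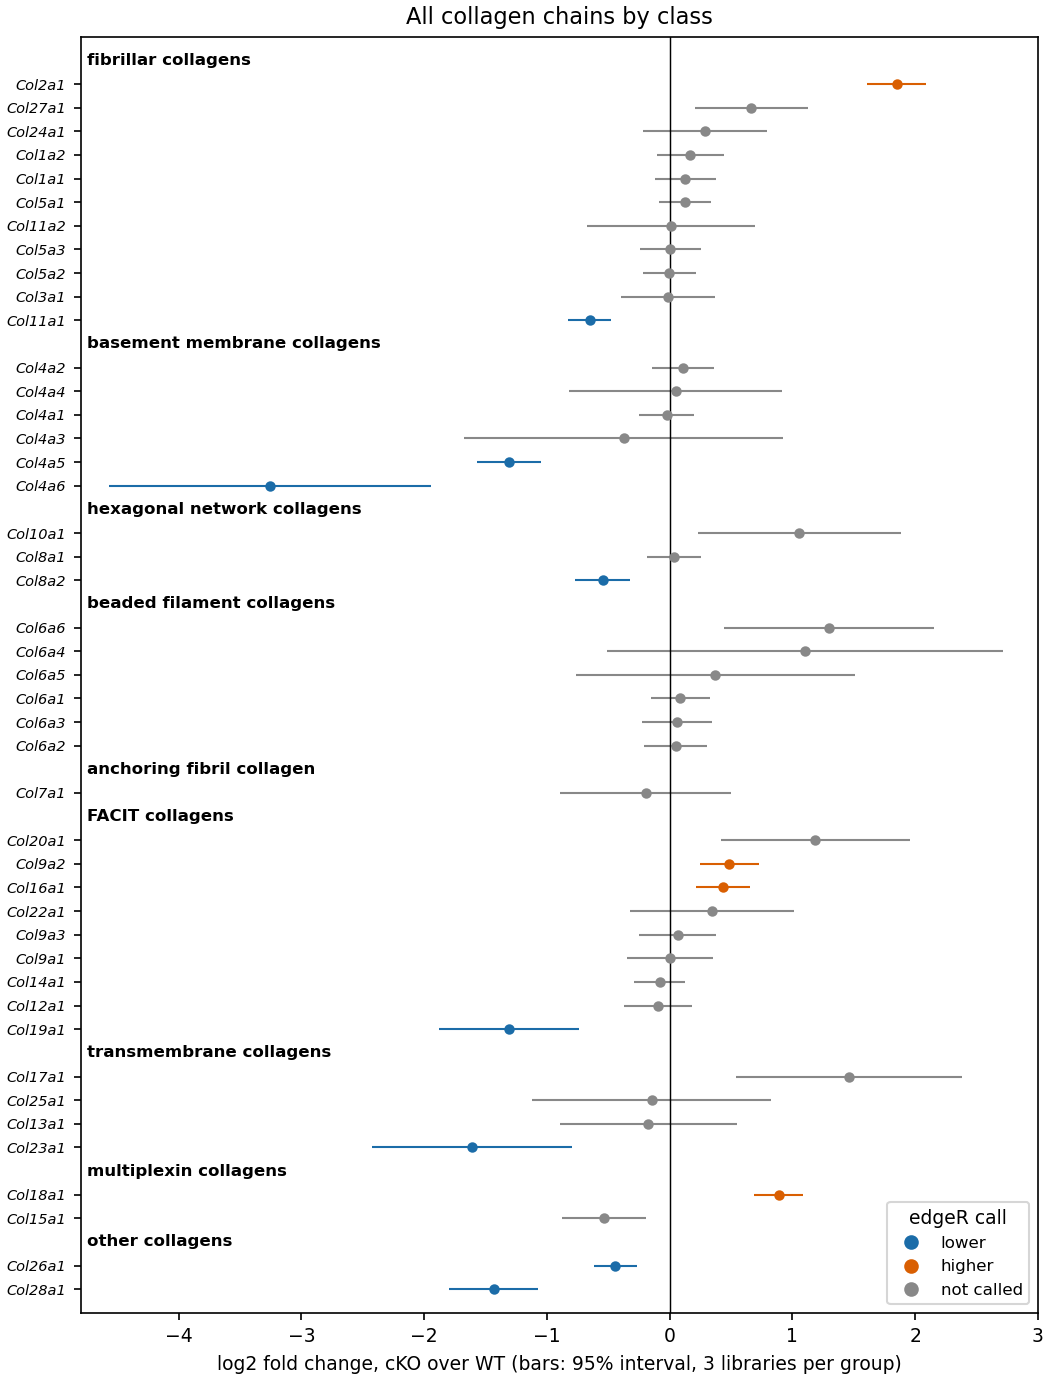
Log2 fold change, cKO-labelled over WT, of all 44 chains by class, with bars for the 95% interval from the edgeR fit on 3 libraries per group. Called chains stand on both sides of 0 in the fibrillar and FACIT classes, the beaded filament class has none, and the widest intervals belong to scarce chains such as Col4a6 and Col6a4.

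The 9 FACIT collagens, which coat fibrils and do not form them, held 1 lower and 2 higher calls, beside 6.17% and 4.77% of all genes. Their median log2 fold change was 0.07. Col19a1, a scarce chain of basement membrane zones and developing muscle, had 4.35, 5.42 and 3.43 CPM in WT and 1.63, 1.91 and 1.79 CPM in the cKO-labelled libraries (2.48-fold lower, log2 −1.31 ± 0.25, adjusted p = 0.0119 by edgeR). Col9a2, one of the 3 chains of type IX collagen, had 59.3, 66.6 and 52.2 CPM in WT and 89.5, 78.7 and 81.5 CPM (1.40-fold higher, log2 0.49 ± 0.11, adjusted p = 0.0199 by edgeR). Col16a1, which binds integrins and fibrils, had 171, 141 and 157 CPM in WT and 200.5, 216 and 217 CPM (1.35-fold higher, log2 0.43 ± 0.10, adjusted p = 0.0210 by edgeR). In each of the 3 the groups do not overlap, and each call was lost when some single libraries were left out. Col19a1 missed the threshold without cKO 3 (adjusted p = 0.0565) or WT 2 (0.0510), over a range of 0.00014 to 0.577 among all alternatives. Col9a2 missed it without cKO 1 (adjusted p = 0.0579), cKO 3 (0.0804) or WT 1 (0.0801), over a range of 0.00139 to 0.0804. Col16a1 missed it without cKO 2 (adjusted p = 0.0720), cKO 3 (0.107) or WT 2 (0.0884), over a range of 0.000891 to 0.793.

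The partners of Col9a2 in the type IX trimer were not called. Col9a1 had 15.3, 19.3 and 15.2 CPM in WT and 19.6, 15.7 and 14.7 CPM in the cKO-labelled libraries (log2 0.00, interval −0.35 to 0.36), and the log2 fold change of Col9a3 was 0.07 (interval −0.25 to 0.38). The Col9a2 to Col9a1 ratio per kilobase was 5.07, 4.52 and 4.50 in WT and 5.99, 6.56 and 7.29 in the cKO-labelled libraries, without overlap. The most abundant FACIT chain, Col14a1, which is prominent in connective tissue sheaths, had 461, 437 and 497 CPM and 449.9, 419.6 and 448 CPM, with overlap (log2 −0.08). Col12a1 and Col22a1 were not called, with log2 fold changes of −0.09 and 0.34. Col20a1 had 3.12, 1.70 and 1.41 CPM in WT and 3.47, 5.57 and 5.21 CPM, without overlap (log2 1.19 ± 0.34, adjusted p = 0.0587 by edgeR), and was called without WT 1 (adjusted p = 0.0214, range 0.0103 to 0.858).

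Of the 3 network-forming collagens, 1 fell, beside 6.17% of all genes called lower. Type VIII collagen builds hexagonal lattices under endothelia, and its alpha 2 chain gene Col8a2 had 37.3, 35.4 and 38.1 CPM in WT and 27.3, 23.4 and 25.1 CPM in cKO-labelled nerves. The fall was 1.46-fold with no overlap (log2 −0.55 ± 0.10, adjusted p = 0.00946 by edgeR), and it missed the threshold without cKO 3 (adjusted p = 0.0510, range over all alternatives 7.82e-05 to 0.406). Its partner Col8a1 had 144, 142 and 121 CPM in WT and 135, 133 and 149 CPM, with overlap (log2 0.03). Col10a1, the type X chain of hypertrophic cartilage, was at 0.850 to 1.15 CPM in WT and 1.48 to 3.08 CPM, and was not called (adjusted p = 0.108 by edgeR).

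Type VI collagen, the beaded filament that links cells to the fibrils, gave 0 calls among 6 chains, where 10.9% of all genes were called. Col6a1 had 779.6, 772 and 948 CPM in WT and 897, 882 and 878 CPM in the cKO-labelled libraries (interval −0.15 to 0.33). Col6a2 had 612, 574 and 738 CPM in WT and 643, 701 and 648 CPM (interval −0.21 to 0.31). Both overlap, and the log2 fold change of Col6a3, the third main chain, was 0.06. The alternative chains were scarcer: Col6a5 was at 6.25 and 7.07 CPM in WT 1 and WT 2 but at 28.5 CPM in WT 3, against 17.4, 16.9 and 19.8 CPM. WT 3 alone stands above the cKO-labelled libraries, and the chain was called only without it (log2 1.41, adjusted p = 0.000827, range 0.000827 to 0.989). The 5 adipocyte markers were also highest in WT 3, with sums of 8.20, 11.5 and 129 CPM in the WT libraries and 43.5 to 105 CPM in the cKO-labelled ones, none called and none at 0, and their part in Col6a5 was not tested. Col6a6 was at 2.42 to 4.21 CPM in WT and 3.83 to 10.6 CPM (log2 1.30, adjusted p = 0.0610 by edgeR), and was called without cKO 1 (adjusted p = 0.00932) or WT 3 (0.0439), over a range of 0.00575 to 0.969. Col6a4 was near the detection limit, at 0.173 to 0.580 CPM and 0.302 to 1.64 CPM.

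Among the 4 transmembrane collagens, whose ectodomains can be shed, 1 fell (6.17% of all genes did), the chain Col23a1. It had 36.8, 31.3 and 67.8 CPM in WT and 8.17, 20.3 and 16.2 CPM in the cKO-labelled libraries, a 3.06-fold fall with wide spread in both groups (log2 −1.61 ± 0.36, adjusted p = 0.0220 by edgeR). The groups do not overlap, but the call was lost without cKO 3 (adjusted p = 0.0833), and the muscle covariate moved the log2 fold change to −2.87 (adjusted p = 0.0396, range over all alternatives 0.00793 to 0.0833). Col17a1, the hemidesmosome collagen of epithelia, was at 0.325 to 0.706 CPM in WT and 1.21 to 1.39 CPM in the cKO-labelled libraries (log2 1.46 ± 0.41, adjusted p = 0.0518 by edgeR), and was called without WT 3 (adjusted p = 0.0248, range 0.0248 to 0.763). Col13a1, found at neuromuscular junctions, had 2.40, 1.70 and 2.44 CPM and 2.05, 2.45 and 1.32 CPM. Col25a1, which motor neuron innervation of muscle needs, was at 0.925 to 1.46 CPM and 0.506 to 1.39 CPM. Neither was called, and their groups overlap. The anchoring fibril chain Col7a1 had 6.47, 3.37 and 3.81 CPM in WT and 2.83, 4.52 and 4.62 CPM, also with overlap.

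The genes that fold, bind or cut collagen, or inhibit its cutting, were read from 4 lists. Of 32 folding and processing genes, 3 were lower and 3 higher, beside 6.17% and 4.77% of all genes, with a median log2 fold change of 0.11 against 0.02 over all genes. Tll1, a procollagen C-proteinase that trims fibrillar procollagens, had 11.7, 12.6 and 11.6 CPM in WT and 1.87, 2.03 and 2.86 CPM in the cKO-labelled libraries. This 5.32-fold fall (log2 −2.41 ± 0.20, adjusted p = 0.000399 by edgeR) was called under all 17 alternatives, with a highest adjusted p of 0.0328. Plod2, which hydroxylates lysines of the telopeptides for cross-linking, had 87.4, 98.6 and 89.4 CPM in WT and 66.2, 64.1 and 65.7 CPM (log2 −0.49 ± 0.08, adjusted p = 0.00642 by edgeR). P4ha1, a prolyl 4-hydroxylase subunit, went from a mean of 129 to 99.98 CPM (adjusted p = 0.0175 by edgeR) and missed the threshold without cKO 2 (adjusted p = 0.0619) or cKO 3 (0.0897), over a range of 0.000507 to 0.343. The higher members, named after their values were seen, were Bmp1, the main procollagen C-proteinase (log2 0.36, adjusted p = 0.0249 by edgeR), Loxl1, a cross-linking oxidase (0.79, 0.0302), and P4ha2, another prolyl 4-hydroxylase subunit (0.45, 0.0424). Bmp1 missed the threshold without cKO 2, cKO 3, WT 1 or WT 2 (adjusted p from 0.0647 to 0.136), Loxl1 without any library but WT 3 (0.0577 to 0.125) and P4ha2 without cKO 1, cKO 3, WT 1 or WT 2 (0.1055 to 0.180), and their highest values over all alternatives were 0.681, 0.829 and 0.665.

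Of 11 collagen receptors tested, 1 was lower and 2 were higher (6.17% and 4.77% over all genes), with a median log2 fold change of 0.39. Adgrg1, an adhesion G protein-coupled receptor that binds type III collagen, had 87.3, 88.1 and 102 CPM in WT and 31.4, 49.5 and 39.6 CPM in the cKO-labelled libraries. It fell 2.30-fold without overlap (log2 −1.20 ± 0.16, adjusted p = 0.00217 by edgeR) and was called under all 17 alternatives. Ddr1, a collagen-activated tyrosine kinase, had 35.2, 33.2 and 34.0 CPM in WT and 48.6, 56.7 and 54.6 CPM (1.56-fold higher, log2 0.64 ± 0.09, adjusted p = 0.00333 by edgeR). Mrc2, an endocytic collagen receptor, rose from a mean of 63.2 to 85.5 CPM (adjusted p = 0.0455 by edgeR), a call that held without WT 3 but with no other library left out, where the adjusted p was 0.0692 to 0.173, within a range of 0.0115 to 0.943 over all alternatives. Gp6, the platelet collagen receptor, had at most 3 reads in every library and was not tested.

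The 13 degradation genes include those of the metalloproteinase inhibitors, Timp1, Timp2, Timp3 and Timp4, none of them called. In this list the neutrophil collagenase gene Mmp8 was lower, from a mean of 4.56 to 1.98 CPM (adjusted p = 0.0167 by edgeR), and none was higher, beside 6.17% lower and 4.77% higher over all genes. Mmp8 missed the threshold without cKO 3 (adjusted p = 0.0826) or WT 2 (0.0711), over a range of 0.00053 to 0.667. Among 13 fibril-binding genes, the small leucine-rich proteoglycan gene Ogn was lower and none was higher, beside the same shares over all genes. Ogn had 577, 643 and 943 CPM in WT and 292, 272 and 301 CPM in the cKO-labelled libraries, a 2.50-fold fall without overlap (log2 −1.32 ± 0.17, adjusted p = 0.00225 by edgeR). Ogn overlaps Cenpp on the opposite strand. With muscle level in the fit, Tll1 and Adgrg1 were called and the other called genes of the 4 lists were not.

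**Figure D4:**
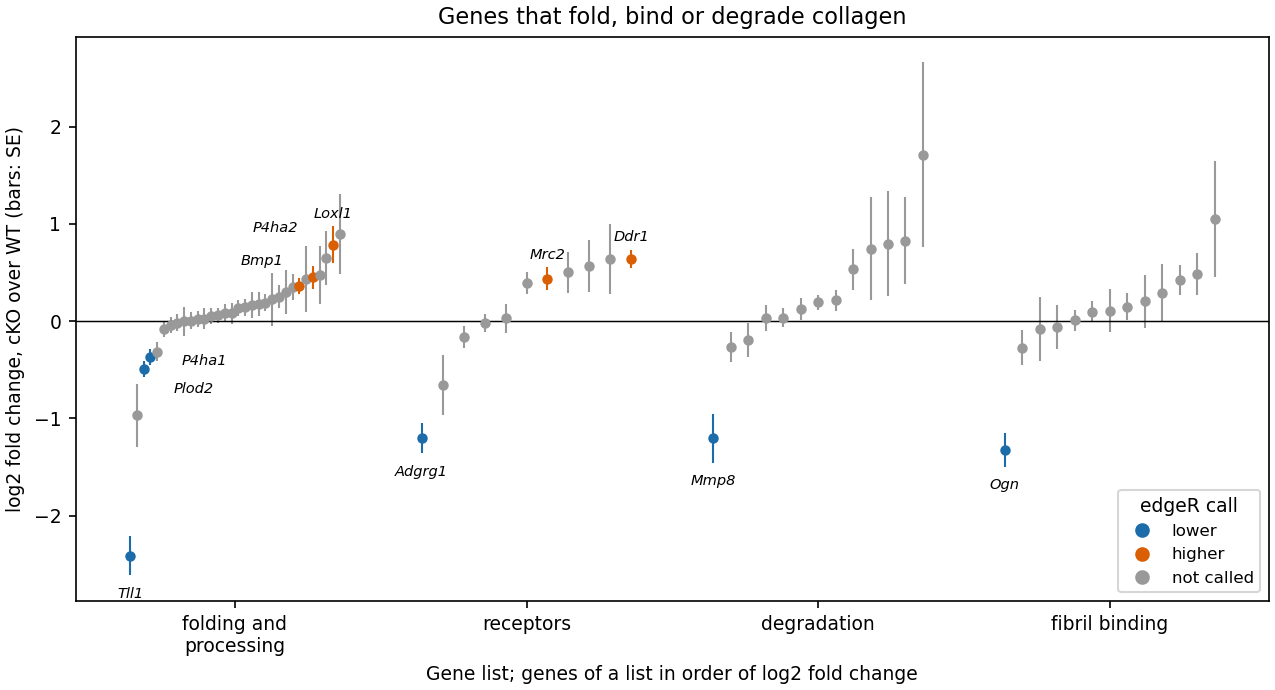
Log2 fold change, cKO-labelled over WT, of each tested gene in the 4 lists of collagen folding, receptor, degradation and fibril-binding genes, in rising order within a list, with bars for the SE of the edgeR fit on 3 libraries per group. Most genes lie near 0, and Tll1, Adgrg1, Mmp8 and Ogn are the lowest point of their lists.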

How the data were processed

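The authors deposited raw counts of reads for each gene symbol, not normalized, in a file for every library. The submitters' processing notes name TopHat2 2.0.13, HTSeq with no version and the build mm10. The annotation and the strand setting are not given in these sources. Per the labels' protocols, RNA came from Trizol and RNeasy and went into the Illumina TruSeq kit. Reads given to no gene (12.07% to 14.26%) or to several (1.635% to 2.818%) were kept out.

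Genes were kept by filterByExpr (minimum count 10) and scaled by TMM factors. The quasi-likelihood test of edgeR 4.0.16 in R 4.3.3 used all 6 libraries and no term but the group, and p-values were adjusted by Benjamini-Hochberg over all 14789 genes. SE was computed as the size of the log2 fold change over the root of F, and intervals are at 95%. CPM uses TMM-scaled library sizes. A count of 0 allows up to 3 counts, or 0.0649 to 0.117 CPM, for counting error only. Levels per kilobase use the longest transcript of GENCODE M21 with a RefSeq match. On simulated counts for this comparison (14670 genes), log2 changes of 0.5, 1 and 2 were given to 66 genes each, and 14472 had none. These changes were called in 24.24%, 66.67% and 95.45% of cases. Whether these shares hold in the data, where 1618 genes were called, was not tested.

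The members, lists and tests were chosen with earlier results of these data known. The naming rule was every chain, with values by library for called chains, the 2 most abundant of each class and the paired type IV genes, and up to 3 called members of each list by p. Libraries of a group differed by more than counting noise (chi-square per degree of freedom at least 13.4). The design text counts 3 mice per group, but each library holds transcripts of both sexes, so whether a library is 1 mouse is not known, and p-values measure the spread between these libraries, which may be technical in part. The alternatives were other scalings, DESeq2 1.42.0, limma-voom (limma 3.58.1), other filters, thinning to equal depth, a replicate block, the mean level of the 8 muscle genes as a covariate, and leaving out each library.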

Additional observations from a re-analysis of the deposited data

How the results depend on the processing

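No called chain changed sign in any of the 17 alternatives, and 6 of the 12 were called whichever library was left out. Of the 32 uncalled chains, 22 changed sign in at least 1 alternative. The alternatives reuse the same libraries, and the called chains were picked by estimates far from 0 relative to their SE. Their constant sign therefore follows largely from that choice and is not separate support. With muscle level in the fit, 2 chains were lower (Col28a1 and Col23a1) and 1 higher (Col2a1), and of the genes in the 4 collagen lists 2 were lower (Tll1 and Adgrg1) and 0 higher. Over all genes it called 0.933% lower and 0.189% higher. The muscle level does not overlap between the groups, so that fit cannot fully tell them apart. Scaling by total counts gave 8 chains higher and 9 list genes higher, beside 8.61% of all genes. It moved the all-gene median log2 fold change from 0.02 to 0.15. DESeq2 gave 9 chains lower and 8 higher (8.5% and 6.74% of all genes). Leaving out 1 library gave 4 to 9 chains lower and 2 to 7 higher, and 4 to 7 list genes lower and 1 to 7 higher, when 3.04% to 7.5% of all genes were lower and 1.83% to 7.19% higher. Same-numbered libraries did not deviate together (correlations −0.207, −0.122 and 0.0724), and only cKO 3 correlated best with its own number. With the replicate number as a block, 8 chains were lower and 3 higher, and 5 list genes were lower and 2 higher, beside 4.35% and 3.12% of all genes. The block ended the calls of Col16a1 (adjusted p = 0.0606 by edgeR), Mrc2 (0.0619), P4ha1 (0.0619), Bmp1 (0.0717) and P4ha2 (0.0539), and changed no other call of a chain or list gene named in the text. Depth limits Col4a6, Col4a3 and Col6a4, which had under 10 reads in some libraries.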

Other observations

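Proteins with a collagen-like triple helix outside the numbered family were read from a list chosen after the data were seen. Of 35 such genes, 25 were tested, 3 were lower and 3 higher, beside 10.9% of all genes called, and 7 had at most 3 reads in every library. The lower genes include Gldn, encoding gliomedin, which gathers sodium channels at nodes of Ranvier. Gldn had 237, 254 and 305 CPM in WT and 55.3, 100.02 and 86.0 CPM in the cKO-labelled libraries (log2 −1.72 ± 0.20, adjusted p = 0.00135 by edgeR). Emid1 had 828, 892 and 916 CPM and 398, 559 and 455 CPM (adjusted p = 0.0035 by edgeR), and the secreted synaptic protein gene C1ql3 had 47.4, 50.6 and 34.4 CPM and 14.9, 17.5 and 14.1 CPM (adjusted p = 0.000845 by edgeR). In all 3 the groups do not overlap, as in 15.8% of all genes with the cKO-labelled libraries below, and the calls used the same values.

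The higher genes were Colq, Ccbe1 and Fcna. Colq, whose product anchors acetylcholinesterase at the neuromuscular junction, was at 0.125 to 0.801 CPM in WT and at 1.09 to 2.98 CPM in the cKO-labelled libraries (adjusted p = 0.0461 by edgeR), where the 8 muscle markers also summed to 3389 to 7773 CPM against 334 to 1303 CPM. Their part in Colq was not tested. Ccbe1, which acts in lymphatic growth, was at 0.225 to 0.605 CPM and 1.60 to 1.95 CPM (adjusted p = 0.0156 by edgeR), and the ficolin gene Fcna at 11.2 to 12.3 CPM and 14.4 to 21.9 CPM (adjusted p = 0.0277 by edgeR). The calls of these 6 genes were not run under the alternatives.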
